A study of Drosophila melanogaster with 18 samples.

Results

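The 10 genes described here are the amylases Amy-p and Amy-d and the maltases Mal-A1 to Mal-A8 of Drosophila melanogaster. They were chosen by name from a table of 12301 genes, and their levels were followed through 9 input libraries. Mal-A5 was not among the 9 names first listed and was added because the numbering takes it in. Alpha-amylase cuts starch and glycogen from food into maltose and short glucose chains. Maltases of the alpha-glucosidase family split those products, and sucrose, into single sugars that the gut wall can take up. In the larva these enzymes are known as products of the midgut, and the amylase genes are known for being turned down by sugar in the diet.

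The study measured ac4C (N4-acetylcytidine), an acetylated cytidine found in RNA, in whole 3rd-instar larvae by antibody capture and sequencing. There were 3 genotypes with 3 replicates each, and RNA of every replicate was sequenced before capture (input) and after it (IP), giving 18 libraries. All 3 genotypes carried a driver labelled Dats-GAL4, which the treatment notes describe as da-GAL4 with tub-GAL80ts, a whole-body driver silenced by GAL80 at low temperature. NAT10 RNAi larvae (Dats-GAL4 > UAS-NAT10-RNAi) carried a construct against the enzyme that makes ac4C and were harvested at 120 h. NAT10 and Xrp1 RNAi larvae (Dats-GAL4 > UAS-NAT10-RNAi Xrp1-RNAi) also carried one against Xrp1, a stress-induced transcription factor, and their harvest time is not given in the labels. Control larvae (Dats-GAL4/+) had the driver without a construct and were harvested at 72 h. Egg laying took 24 h at 18 °C in every genotype, and the shift to 30 °C came in the first instar. Each sample pooled 40 larvae, so the spread between replicates is one between pools. Genotype and hours of growth cannot be told apart in the comparison of NAT10 RNAi with control.

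Input libraries held 15518179 to 24272099 reads in genes. Replicate 1 with both constructs stood apart from its group, with a chi-square per degree of freedom of 8.15 and 11.6 against replicates 2 and 3, where other replicate pairs gave 1.41 to 3.95. The NAT10 transcript itself (l(1)G0020) had 5.63 ± 0.369 FPKM in NAT10 RNAi, 6.08 ± 0.0875 FPKM with both constructs and 5.19 ± 0.247 FPKM in control (SD, n = 3 each), so the knockdown of its RNA was not seen. Xrp1 had 385.5 ± 0.925 FPKM in NAT10 RNAi, 41.7 ± 1.85 FPKM with both constructs and 211.0 ± 2.82 FPKM in control. FPKM scales the reads of a gene by its length and by the depth of the library, so that genes of different length can be set side by side.

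The 10 genes lie at 2 places on chromosome arm 2R (coordinates of build BDGP6). The 8 maltases fill 24.3 kb, from 8449664 to 8473961, with 5 on the plus and 3 on the minus strand. They stand close together there, with only 65 bp between Mal-A5 and Mal-A6 and 126 bp between Mal-A2 and Mal-A3. Amy-p (17118636 to 17120303, minus strand) and Amy-d (17124764 to 17126369, plus strand) point away from each other across 4460 bp that hold Spn53F and asRNA:CR45272. Each amylase gene is a single exon, of 1668 bp in Amy-p and 1606 bp in Amy-d, whereas the maltases have 3 to 5 exon blocks each. The authors' annotation gives an alpha-amylase catalytic domain to all 10 and the C-terminal all-beta domain to the 2 amylases.

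The copies Amy-p and Amy-d are nearly identical in sequence, so reads can match both, and how such reads were counted is not given in the sources used here. The split between the 2 copies is therefore uncertain, and their sum is the firmer measure. Most members share no exon bases with another gene. Mal-A1 shares 82 bp with Cyp4e1 on the other strand, and Mal-A8 shares 6 bp with mtt on the other strand. Both of those partners were low, with Cyp4e1 at 0.938 FPKM in NAT10 RNAi, 0.402 FPKM with both constructs and 0.393 FPKM in control, and mtt at 0.545, 0.652 and 0.570 FPKM in the same order of genotypes.

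Both amylases rose strongly in NAT10 RNAi and with both constructs. Amy-p had 36.2, 37.1 and 34.1 FPKM in the 3 NAT10 RNAi libraries, 17.3, 23.8 and 24.2 FPKM in the 3 libraries with both constructs, and 3.3, 1.9 and 2.7 FPKM in the 3 control libraries. Each genotype kept to its own range, with NAT10 RNAi highest and control lowest. The low value with both constructs came from replicate 1. Amy-p averaged 35.8 ± 1.52 FPKM in NAT10 RNAi and 2.62 ± 0.681 FPKM in control (SD, n = 3 each), a 13.7-fold difference in mean FPKM, which rested on 1028 to 1503 reads per NAT10 RNAi library and 61 to 99 reads per control library. Amy-d had 27.0, 26.3 and 26.3 FPKM in NAT10 RNAi, 16.9, 21.0 and 22.9 FPKM with both constructs, and 2.42, 3.07 and 2.99 FPKM in control. Its 3 genotypes did not overlap either, and the low library with both constructs was again replicate 1.

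Fold changes were tested with limma on log2(FPKM + 1), a scale that understates the change of low genes, with adjustment over all 11557 genes tested. Against control, Amy-p rose by 3.36 ± 0.14 in NAT10 RNAi (log2, SE; limma adjusted p = 1.29e-08) and by 2.66 ± 0.14 with both constructs (limma adjusted p = 3.60e-07). Amy-d rose by 2.85 ± 0.10 in NAT10 RNAi (limma adjusted p = 3.06e-09) and by 2.47 ± 0.10 with both constructs (limma adjusted p = 4.56e-08). Summed as 1 gene, the pair had 63.1, 63.4 and 60.4 FPKM in NAT10 RNAi, 34.2, 44.9 and 47.0 FPKM with both constructs, and 5.68, 4.98 and 5.69 FPKM in control. The sum rose by 3.30 ± 0.10 in NAT10 RNAi and by 2.73 ± 0.10 with both constructs on the log2 scale (limma adjusted p = 9.35e-10 and 2.03e-08). The change thus does not rest on how reads were divided between the copies. Amy-p made up 57.4 ± 1.04% of the summed amylase FPKM in NAT10 RNAi, 51.7 ± 1.29% with both constructs and 47.7 ± 9.55% in control (SD, n = 3 each). The wide control range of 38.2% to 57.3% contains the values with both constructs and overlaps those of NAT10 RNAi (56.5% to 58.5%).

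**Figure D1:**
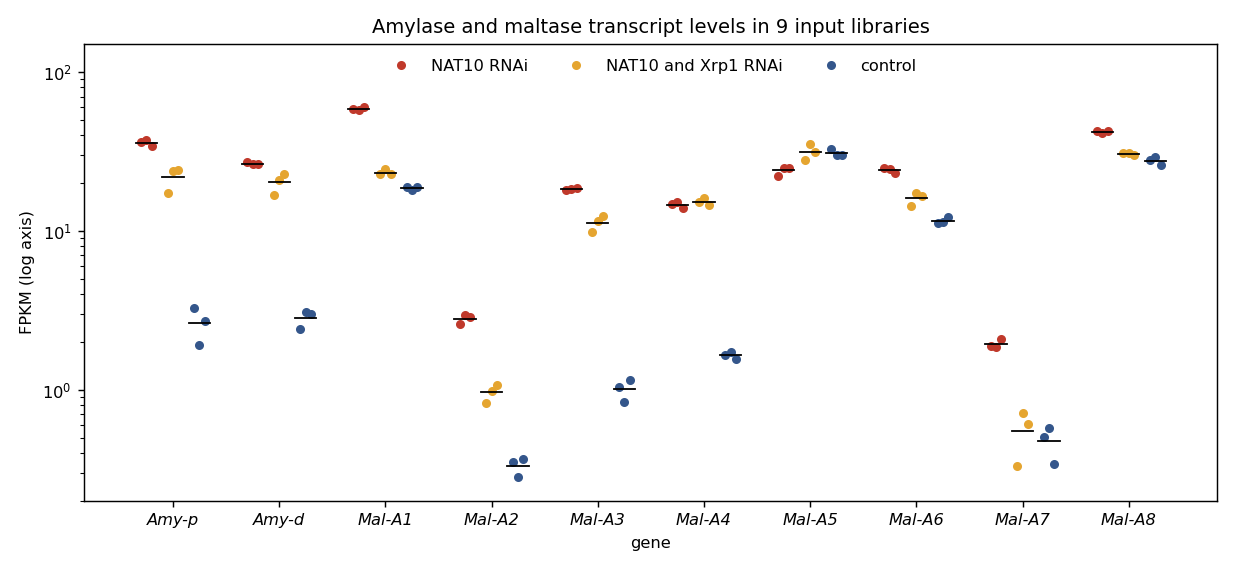
FPKM of each gene (log axis) in the 9 input libraries, with NAT10 RNAi in red, NAT10 and Xrp1 RNAi in yellow and control in blue. Points are libraries and bars are means of 3. In Amy-p, Amy-d, Mal-A3 and Mal-A4 the control points lie far below both other genotypes, and in Mal-A5 alone the NAT10 RNAi points lie below the control points.

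Mal-A3 and Mal-A4, neighbouring maltase genes 922 bp apart, behaved most like the amylases in NAT10 RNAi. Mal-A3 had 18.0, 18.4 and 18.6 FPKM in NAT10 RNAi, 9.90, 11.5 and 12.5 FPKM with both constructs, and 1.04, 0.840 and 1.16 FPKM in control. The genotypes were again fully separate. Its mean in NAT10 RNAi was 18.1-fold that of control, the highest ratio of mean FPKM among the 10 genes. On the log2 scale Mal-A3 rose by 3.27 ± 0.08 in NAT10 RNAi (limma adjusted p = 2.76e-10) and by 2.61 ± 0.08 with both constructs (limma adjusted p = 6.71e-09).

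Mal-A4 was at a like level in both RNAi genotypes. It had 14.8, 15.2 and 13.9 FPKM in NAT10 RNAi, 15.2, 16.1 and 14.6 FPKM with both constructs, and 1.66, 1.72 and 1.55 FPKM in control. The 2 RNAi genotypes overlapped and both lay well above control. Mal-A4 rose by 2.56 ± 0.06 in NAT10 RNAi (limma adjusted p = 7.98e-11) and by 2.62 ± 0.06 with both constructs (limma adjusted p = 2.35e-10). The difference between both constructs and NAT10 RNAi was 0.06, with a 95% interval of -0.06 to 0.19 (limma adjusted p = 0.366). After rescaling libraries by their median ratio it was 0.24 and passed the test, where the scale factors were 0.922 to 0.982 with both constructs and 1.09 to 1.10 in NAT10 RNAi.

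Mal-A1 was the most abundant of the 10 in NAT10 RNAi. It had 58.8, 57.6 and 59.7 FPKM in NAT10 RNAi, 22.7, 24.3 and 22.8 FPKM with both constructs, and 19.0, 18.0 and 18.9 FPKM in control. With both constructs the level was close to control, although the ranges did not overlap. Mal-A1 rose by 1.61 ± 0.04 in NAT10 RNAi (limma adjusted p = 1.54e-10) and by 0.31 ± 0.04 with both constructs (limma adjusted p = 0.000148).

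Mal-A6 and Mal-A8 changed in the same order at smaller size. Mal-A6 had 24.8, 24.5 and 23.3 FPKM in NAT10 RNAi, 14.4, 17.3 and 16.6 FPKM with both constructs, and 11.3, 11.3 and 12.2 FPKM in control. It rose by 0.999 ± 0.06 in NAT10 RNAi and by 0.43 ± 0.06 with both constructs (limma adjusted p = 3.04e-07 and 0.000455). Mal-A8, the last maltase of the cluster, had 42.7, 41.5 and 42.3 FPKM in NAT10 RNAi, 30.7, 31.0 and 30.1 FPKM with both constructs, and 27.7, 29.3 and 26.1 FPKM in control. The levels of Mal-A8 were fully separate between genotypes, but the lowest library with both constructs came within 1 FPKM of the highest control library. It rose by 0.59 ± 0.04 in NAT10 RNAi (limma adjusted p = 5.96e-07). With both constructs it rose by 0.14 ± 0.04 (limma adjusted p = 0.0218), a call that was lost when NAT10 RNAi was left out of the fit (limma adjusted p = 0.0543), with DESeq2 (adjusted p = 0.0815), without replicate 2 of both constructs (limma adjusted p = 0.0612) and without replicate 3 of control (limma adjusted p = 0.0812).

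Mal-A2 and Mal-A7 were the low members. Mal-A2 had 2.59, 2.97 and 2.85 FPKM in NAT10 RNAi, 0.822, 0.987 and 1.08 FPKM with both constructs, and 0.350, 0.281 and 0.369 FPKM in control, from 90 to 147, 26 to 48 and 11 to 13 reads per library in that order. Genotypes did not overlap. Mal-A2 rose by 1.51 ± 0.08 in NAT10 RNAi and by 0.56 ± 0.08 with both constructs (limma adjusted p = 5.25e-08 and 0.000325). Mal-A7 had 1.87, 1.86 and 2.08 FPKM in NAT10 RNAi, 0.332, 0.718 and 0.606 FPKM with both constructs, and 0.505, 0.574 and 0.340 FPKM in control, where both constructs overlapped control. It rose by 0.999 ± 0.11 in NAT10 RNAi (limma adjusted p = 1.25e-05). With both constructs it differed from control by 0.07, with a 95% interval of -0.16 to 0.31 (limma adjusted p = 0.630). On recovered reads edgeR gave larger changes in NAT10 RNAi, of 2.89 for Mal-A2 and 1.83 for Mal-A7. With both constructs it gave 1.54 for Mal-A2 and 0.22 for Mal-A7, so whether Mal-A2 rose there by more than 1 depends on the scale. Both genes passed the filter of 1 FPKM in 3 libraries because of their level in NAT10 RNAi, Mal-A7 through those libraries alone and Mal-A2 with 1 library of both constructs besides.

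Mal-A5 went the other way. This gene, which begins 1868 bp after Mal-A4, had 22.3, 24.9 and 24.8 FPKM in NAT10 RNAi, 27.7, 35.0 and 31.2 FPKM with both constructs, and 32.8, 29.9 and 30.2 FPKM in control. NAT10 RNAi libraries lay below all others, and both constructs overlapped control. Mal-A5 fell by 0.35 ± 0.08 in NAT10 RNAi (log2, SE; limma adjusted p = 0.00214), to 0.775 of the control mean FPKM. With both constructs its difference from control was 0.01, with a 95% interval of -0.16 to 0.18 (limma adjusted p = 0.930). Its immediate neighbour Mal-A6, on the same strand 65 bp downstream, rose in NAT10 RNAi.

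**Figure D2:**
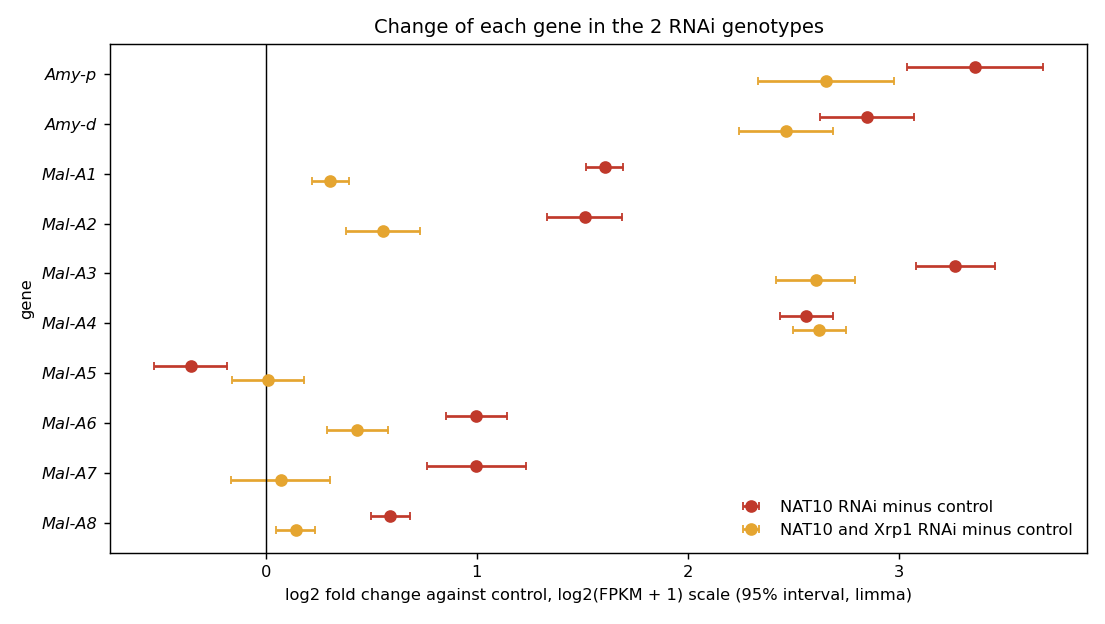
Log2 fold change of each gene against control on the log2(FPKM + 1) scale, with 95% intervals from limma, for NAT10 RNAi (red) and for NAT10 and Xrp1 RNAi (yellow). The red and yellow points of Amy-p, Amy-d, Mal-A3 and Mal-A4 lie between 2.47 and 3.36, while for Mal-A1, Mal-A2, Mal-A6, Mal-A7 and Mal-A8 the yellow points lie between 0.07 and 0.56.

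Counted over the 10 genes, 9 were higher and 1 lower in NAT10 RNAi than in control, where 47.3% of all tested genes were called higher and 18.9% lower. The median change was 1.56 for the members and 0.17 for all genes tested. A rise of at least 1 on the log2 scale was called in 6 members (Amy-p, Amy-d and Mal-A1 to Mal-A4), against 5.07% of all genes, and edgeR on recovered reads added Mal-A7 (1.83). Leaving aside Mal-A2 and Mal-A7, 7 of the other 8 were higher and 1 lower.

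With both constructs against control, 8 members were higher and none lower, where 21.5% of all genes were called higher and 19.2% lower. The members' median was 0.50, against 0.00121 for all genes. A rise of at least 1 was called in 4 members (Amy-p, Amy-d, Mal-A3 and Mal-A4), against 1.19% of all genes, and edgeR on recovered reads added Mal-A2 (1.54). Leaving aside Mal-A2 and Mal-A7, 7 of the other 8 were higher and none lower, with a median of 1.45. With NAT10 RNAi left out of the fit, 6 members were called higher, since Mal-A2 then failed the filter and Mal-A8 missed the threshold. Without replicate 1 of both constructs, which stood apart, the same count of 8 was called, and Amy-p then rose by 2.81 and Amy-d by 2.59. Both RNAi genotypes were compared with the same 3 control libraries, so the 2 sets of values are not independent.

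Set directly against NAT10 RNAi, larvae with both constructs had 8 members lower and 1, Mal-A5, higher, where 46.1% of all genes were called lower and 15.2% higher. The median member changed by -0.61, and the median of all genes by -0.16, a shift of the whole table that rescaling removes (members' median then -0.43, with 7 lower and 2 higher). Leaving aside Mal-A2 and Mal-A7, 6 of the other 8 were lower and 1 higher, and 5 were lower and 2 higher after rescaling. Mal-A1 fell by 1.30 ± 0.04 (limma adjusted p = 1.40e-09), Mal-A2 fell by 0.96 ± 0.08 (limma adjusted p = 2.76e-06) and Mal-A7 fell by 0.93 ± 0.11 (limma adjusted p = 3.06e-05). Amy-p fell by 0.71 ± 0.14 (limma adjusted p = 0.00174), Mal-A3 fell by 0.66 ± 0.08 (limma adjusted p = 6.84e-05), Mal-A6 fell by 0.56 ± 0.06 (limma adjusted p = 3.28e-05) and Mal-A8 fell by 0.45 ± 0.04 (limma adjusted p = 7.02e-06). Amy-d fell by 0.38 ± 0.10 (limma adjusted p = 0.00726), but by only 0.20 after median-ratio rescaling, which no longer passed (limma adjusted p = 0.0816). Mal-A5 rose by 0.37 ± 0.08 (limma adjusted p = 0.00211).

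The size of the change in larvae with both constructs, as a share of that in NAT10 RNAi on the log2 scale, ran from 7.05% to 102% among the genes that rose in NAT10 RNAi. It was 102% for Mal-A4, 86.6% for Amy-d, 79.8% for Mal-A3 and 79.0% for Amy-p. It was 43.5% for Mal-A6, 36.8% for Mal-A2, 23.9% for Mal-A8, 19.1% for Mal-A1 and 7.05% for Mal-A7. The 4 genes with the higher shares were also the 4 with the largest rise, and no test was made of this split, which was seen in the values. The shares depend on the scale, and from edgeR on recovered reads they were 85.1% to 108% for those 4 genes, 53.1% for Mal-A2, 52.9% for Mal-A6 and 12.2% to 31.4% for Mal-A8, Mal-A1 and Mal-A7.

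The makeup of the maltase transcripts differed between genotypes because the members changed by unequal amounts. Summed over the 8 genes, maltase FPKM was 186.7 ± 0.933 in NAT10 RNAi, 129.4 ± 7.58 with both constructs and 92.3 ± 1.78 in control (SD, n = 3 each). Mal-A1 held 31.4 ± 0.536% of that sum in NAT10 RNAi, 18.0 ± 0.546% with both constructs and 20.2 ± 0.569% in control. Mal-A5 held 12.8 ± 0.735% in NAT10 RNAi, 24.1 ± 1.38% with both constructs and 33.5 ± 1.16% in control. The most abundant maltase transcript was Mal-A1 in every NAT10 RNAi library and Mal-A5 in every control library, and with both constructs it was Mal-A8 in replicate 1 and Mal-A5 in replicates 2 and 3. Mal-A3 held 9.82 ± 0.123% in NAT10 RNAi, 8.72 ± 0.811% with both constructs and 1.10 ± 0.181% in control. Mal-A4 held 7.83 ± 0.379% in NAT10 RNAi, 11.8 ± 0.592% with both constructs and 1.78 ± 0.0811% in control.

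**Figure D3:**
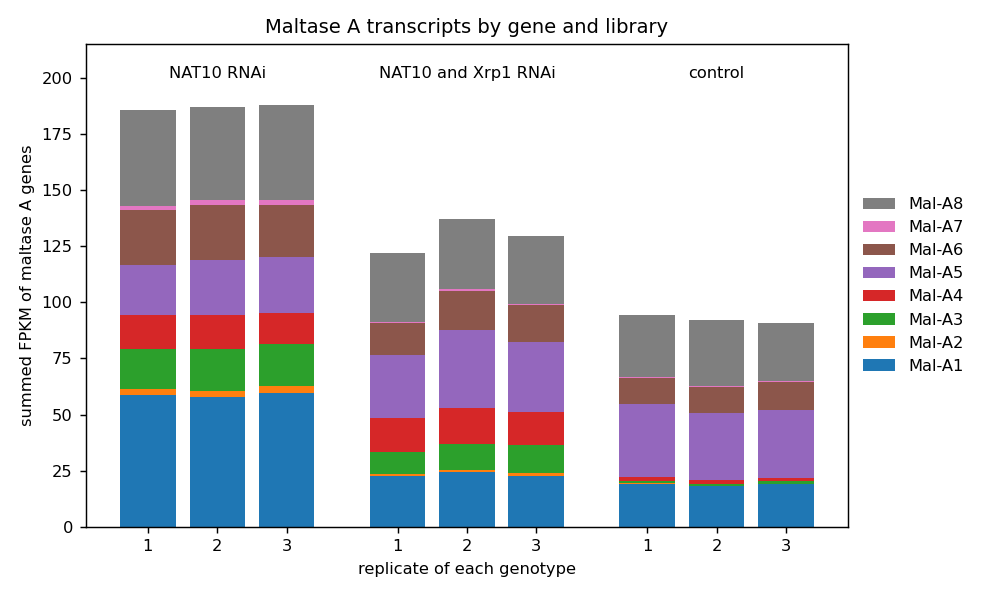
Summed FPKM of the 8 maltase A genes in each input library, stacked by gene, for NAT10 RNAi, NAT10 and Xrp1 RNAi, and control. The stacks reach 186.7 FPKM on average in NAT10 RNAi and 92.3 FPKM in control, and the Mal-A3 and Mal-A4 layers are almost invisible in control.

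The balance of amylase to maltase transcripts also differed. The ratio of summed amylase to summed maltase FPKM was 0.334 ± 0.0101 in NAT10 RNAi, 0.324 ± 0.0413 with both constructs and 0.0590 ± 0.00438 in control (SD, n = 3 each). It lay between 0.322 and 0.340 in NAT10 RNAi and between 0.281 and 0.363 with both constructs, so those genotypes overlapped, and it did not exceed 0.0626 in any control library.

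Within each genotype the 10 genes spanned a wide range of levels. In NAT10 RNAi the order of mean FPKM was Mal-A1, Mal-A8, Amy-p, Amy-d, Mal-A6, Mal-A5, Mal-A3, Mal-A4, Mal-A2 and Mal-A7, and Mal-A6 and Mal-A5 were the neighbours in that order whose libraries overlapped (24.2 ± 0.793 and 24.0 ± 1.48 FPKM). With both constructs the order was Mal-A5, Mal-A8, Mal-A1, Amy-p, Amy-d, Mal-A6, Mal-A4, Mal-A3, Mal-A2 and Mal-A7. There Mal-A5 overlapped Mal-A8, and each neighbour from Mal-A1 down to Mal-A4 overlapped the next. In control the order was Mal-A5, Mal-A8, Mal-A1, Mal-A6, Amy-d, Amy-p, Mal-A4, Mal-A3, Mal-A7 and Mal-A2, and the overlapping neighbours were Amy-d with Amy-p and Mal-A7 with Mal-A2.

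Likeness between members was measured as the root mean square difference of log2(FPKM + 1) over the 9 libraries, each gene first centred on its control mean. The closest pair was Amy-p and Mal-A3 (0.135), which lie in different places on the arm. Mal-A1 and Mal-A2 followed (0.166), then Amy-d with Mal-A4 (0.231) and Mal-A6 with Mal-A7 (0.233). The amylase copies were farther from each other than that (0.371). For the low genes Mal-A2 and Mal-A7 these distances rest on the pseudocount of 1. With 0.1 in its place, a choice made after seeing the data, Mal-A1 and Mal-A2 were 0.854 apart and Mal-A6 and Mal-A7 0.553, where Amy-d and Mal-A4 were 0.261 apart and Amy-p and Mal-A3 0.297. Among the 7750 other genes with at least 5 FPKM in a genotype, the nearest to both Amy-p and Mal-A3 were CR45022, CG42369 and CG15597, and those nearest to Amy-d were CG34054, CR45022 and lectin-22C. Nearest to Mal-A4 were lectin-22C, CG12607 and Hsp70Ba, the last a heat shock gene of near-identical copies. Nearest to Mal-A1 were CG15247 (0.0458), Men, which encodes malic enzyme, and Lk6. Nearest to Mal-A8 were Opa1 (0.0294), CLIP-190 and CG9279, and nearest to Mal-A5 were TER94 (0.0633), grsm and Sap-r. Nearest to Mal-A6 were Gdh, Mur18B and verm. With the same dependence on the pseudocount, Mal-A2 had Vha100-5, Muc18B and Pxn, and Mal-A7 had CG7252, CG8654 and Tina-1. Some of the nearest genes of Amy-p, Amy-d, Mal-A3 and Mal-A4 were low in control, so those places depend on the pseudocount too. Control means were 0.133 FPKM for CR45022, 0.455 FPKM for CG15597, 0.666 FPKM for CG34054 and 0.788 FPKM for lectin-22C. In NAT10 RNAi CR45022 had 11.1 FPKM and CG15597 had 15.1 FPKM.

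Genes beside the members on the chromosome were examined by the same fit. CG15605, which begins 40 bp after Amy-d, had 25.8 ± 0.810 FPKM in NAT10 RNAi, 15.6 ± 2.51 FPKM with both constructs and 10.7 ± 1.59 FPKM in control, and it rose by 1.20 ± 0.11 in NAT10 RNAi (limma adjusted p = 5.53e-06). CG15611, on the other side of the amylase pair, rose by 0.45 ± 0.06 in NAT10 RNAi (limma adjusted p = 7.80e-05). Cyp4e2, 2499 bp to the left of Mal-A1, rose by 0.26 ± 0.07 in NAT10 RNAi (limma adjusted p = 0.00939). To the right of Mal-A8, which mtt overlaps, the nearest protein-coding gene clear of it is CG12780, at a distance of 77897 bp. CG12780 differed by -0.19 ± 0.11 in NAT10 RNAi (limma adjusted p = 0.157). In larvae with both constructs, CG15605 and Cyp4e2 rose by 0.50 ± 0.11 and 0.35 ± 0.07 (limma adjusted p = 0.0060 and 0.0042). CG15611 and CG12780 were lower than control there, at -0.29 ± 0.06 and -0.40 ± 0.11 (limma adjusted p = 0.0037 and 0.0170). Spn53F, which lies between the amylases, has no expression value here.

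Of 4 other measured genes of starch and sugar digestion, 3 were higher and none lower in NAT10 RNAi (2 higher after rescaling), where 47.3% of all genes were called higher. With both constructs 2 were higher and 1 lower, where 21.5% of all genes were called higher and 19.2% lower. The alpha-glucosidase gene tobi, named as a target of brain insulin, had 6.56 ± 0.371 FPKM in NAT10 RNAi, 1.34 ± 0.172 FPKM with both constructs and 0.912 ± 0.0413 FPKM in control, a rise of 1.98 ± 0.08 in NAT10 RNAi (limma adjusted p = 5.14e-09). Amyrel, a more distant relative of the amylases, was instead high with both constructs, at 2.60 ± 0.102 FPKM, against 0.817 ± 0.165 FPKM in NAT10 RNAi and 0.705 ± 0.0576 FPKM in control. Amyrel rose by 1.08 ± 0.08 with both constructs (limma adjusted p = 4.06e-06). It passed the filter of 1 FPKM in 3 libraries because of its level in those larvae. Treh, which encodes trehalase, rose by 0.30 ± 0.06 in NAT10 RNAi (limma adjusted p = 0.000868) and fell by 0.18 ± 0.06 with both constructs (limma adjusted p = 0.0263).

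All 8 measured genes of a list for glycogen and trehalose metabolism were higher in NAT10 RNAi, with a median of 0.86. After rescaling 7 were higher, with a median of 0.69. Of all genes, 47.3% were called higher in NAT10 RNAi without rescaling. The list includes Hex-A but not Treh, which was counted above and fell with both constructs. Of the 8, 5 were higher and none lower with both constructs, with a median of 0.23, where 21.5% of all genes were called higher. GlyP, glycogen phosphorylase, had 187.7 ± 1.48 FPKM in NAT10 RNAi, 141.7 ± 6.06 FPKM with both constructs and 60.8 ± 2.11 FPKM in control. It rose by 1.61 ± 0.04 in NAT10 RNAi (limma adjusted p = 1.87e-10) and by 1.21 ± 0.04 with both constructs (limma adjusted p = 7.20e-09). Pgm1, phosphoglucose mutase, rose by 1.51 ± 0.04 and Tps1, which makes trehalose, by 1.27 ± 0.08 in NAT10 RNAi (limma adjusted p = 4.37e-10 and 2.43e-07). Of 6 tested sugar transporters 3 were higher and 1 lower in NAT10 RNAi, near the shares of all genes called, 47.3% higher and 18.9% lower. After rescaling 3 were higher and 2 lower. There sut4 was up by 0.79 ± 0.07 and Glut1 down at -0.36 ± 0.06 without rescaling (limma adjusted p = 2.25e-06 and 0.000207). With both constructs 2 transporters were higher and none lower, where 21.5% of all genes were called higher and 19.2% lower.

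Genes of sugar sensing, which include known regulators of amylase expression, changed little in size. Of 13 tested, 7 were higher and 3 lower in NAT10 RNAi, with a median of 0.14, under the 0.17 of all genes. Those counts are near the shares of all genes called, 47.3% higher and 18.9% lower. After rescaling, 5 were higher and 4 lower. Mondo, the sugar-sensing transcription factor, rose by 0.38 ± 0.05 and its partner bigmax by 0.44 ± 0.05 in NAT10 RNAi (limma adjusted p = 9.54e-05 and 4.20e-05). The repressor gene sug (sugarbabe) rose by 0.41 ± 0.07 (limma adjusted p = 0.000362) and cbt (cabut) fell by 0.46 ± 0.04 (limma adjusted p = 9.46e-07). For daw, a TGF-beta ligand, the difference was -0.14 ± 0.06 (limma adjusted p = 0.0579).

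Of 38 tested enzymes that digest other substrates, 25 were higher and 3 lower in NAT10 RNAi, with a median of 0.73, where 47.3% of all genes were called higher and 18.9% lower. After rescaling 24 were higher and 8 lower. With both constructs 25 were higher and 2 lower, with a median of 0.44 (26 and 2 after rescaling). Of all genes, 21.5% were called higher and 19.2% lower there. Between both constructs and NAT10 RNAi 12 were higher and 20 lower, where 15.2% of all genes were called higher and 46.1% lower. After rescaling 15 were higher and 15 lower. The lysosomal-type alpha-mannosidase LManVI had 91.2 ± 2.57 FPKM in NAT10 RNAi, 46.1 ± 5.31 FPKM with both constructs and 15.6 ± 0.510 FPKM in control, a rise of 2.47 ± 0.07 in NAT10 RNAi (limma adjusted p = 5.91e-10). LManV and LManIII rose by 2.43 ± 0.07 and 2.33 ± 0.08 in the same comparison (limma adjusted p = 7.47e-10 and 2.69e-09). Proteases of the Jonah family were mixed: Jon25Biii rose by 1.77 ± 0.08 in NAT10 RNAi, and Jon65Ai fell by 0.79 ± 0.08 (limma adjusted p = 2.75e-08 and 1.22e-05). Jon25Bi rose by 1.35 ± 0.10 with both constructs (limma adjusted p = 4.26e-06), where in NAT10 RNAi its difference was -0.19 ± 0.10 (limma adjusted p = 0.126).

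**Figure D4:**
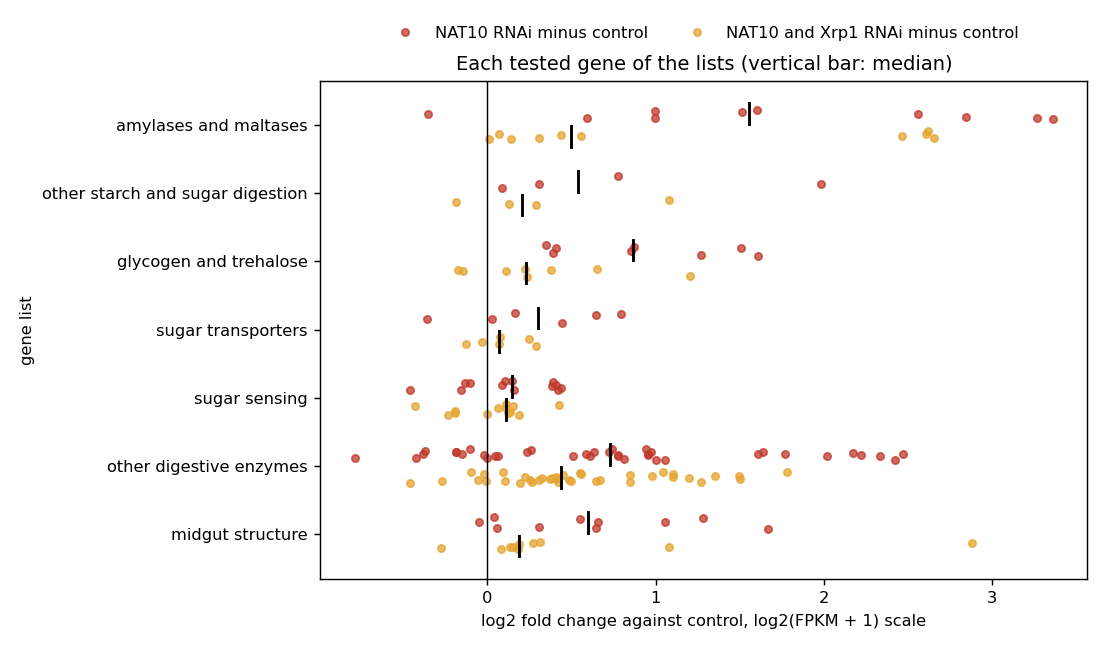
Log2 fold change against control on the log2(FPKM + 1) scale of each tested gene in 7 lists, for NAT10 RNAi (red) and for NAT10 and Xrp1 RNAi (yellow). Points are genes and vertical bars are medians, which for the amylases and maltases are 1.56 and 0.50 and for midgut structure genes 0.60 and 0.19.

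Structural markers of enterocytes in the midgut, where these enzymes are made, were mostly higher too. Of 10 genes for the structure of midgut enterocytes, 7 were higher and none lower in NAT10 RNAi (7 and 1 after rescaling). Of all genes, 47.3% were called higher and 18.9% lower there. With both constructs 7 of the 10 were higher and 1 lower, where 21.5% of all genes were called higher and 19.2% lower. The 7 include PGRP-SC1a, which passed the filter of 1 FPKM in 3 libraries because of its level in those larvae. The summed level of the 10 genes was 186.5 to 190.0 FPKM in NAT10 RNAi, 136.8 to 146.0 FPKM with both constructs and 112.0 to 117.3 FPKM in control. Myo61F, a brush border myosin, rose by 1.28 ± 0.06 in NAT10 RNAi, and mesh, of the septate junction, by 0.66 ± 0.04 (limma adjusted p = 1.34e-08 and 4.00e-07), while nub differed by -0.05 ± 0.06 (limma adjusted p = 0.489). In RNA of whole larvae, fewer cells of a type and less RNA per cell cannot be told apart, and the part of midgut content in the members' changes was not tested beyond the following values. Measured relative to the mean of these 10 genes, Amy-p was higher by 2.74, Mal-A3 by 2.65, Amy-d by 2.23 and Mal-A4 by 1.94 in NAT10 RNAi on the log2 scale, and Mal-A1 by 0.98. On that scale Mal-A8 was at -0.03 in NAT10 RNAi, the opposite sign, which did not pass the test (limma adjusted p = 0.534). With both constructs Amy-p was higher by 2.16, Mal-A4 by 2.12, Mal-A3 by 2.11 and Amy-d by 1.97, and these 4 were the members called higher. Mal-A1, Mal-A5, Mal-A7 and Mal-A8 were called lower there, at -0.19, -0.49, -0.43 and -0.36 (limma adjusted p = 0.00129, 2.40e-05, 0.00120 and 1.50e-05). Mal-A2 at 0.06 and Mal-A6 at -0.07 did not pass (limma adjusted p = 0.512 and 0.299). The list holds PGRP-SC1a, an amidase gene at 0.191 ± 0.0932 FPKM in NAT10 RNAi, 7.50 ± 1.27 FPKM with both constructs and 0.151 ± 0.136 FPKM in control. Without it 6 members were higher and 1, Mal-A5, lower with both constructs, where Mal-A1 stood at 0.07, Mal-A6 at 0.20 and Mal-A5 at -0.23 (limma adjusted p = 0.121, 0.0125 and 0.0117).

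Markers of other tissues moved as well, and the enteroendocrine and peritrophic matrix lists, also of the gut, are given last. Of all genes tested, 47.3% were called higher and 18.9% lower in NAT10 RNAi, and 21.5% and 19.2% with both constructs. All 6 salivary gland glue genes were lower in NAT10 RNAi and with both constructs, and their summed level was 3831 to 3963 FPKM in NAT10 RNAi, 3639 to 3790 FPKM with both constructs and 29102 to 33308 FPKM in control. All 6 measured muscle genes were higher in both, with sums of 7478 to 7659, 5666 to 5884 and 2714 to 2822 FPKM in the same order of genotypes. Of 7 fat body genes, 2 were higher and 5 lower in NAT10 RNAi, and 5 were higher and 1 lower with both constructs. All 5 hemocyte genes were higher in NAT10 RNAi, also after rescaling. The 4 tested Malpighian tubule genes were higher there too, but 2 of them after rescaling, where 47.3% of all genes were called higher without it. With both constructs 2 of each list were higher, and 1 hemocyte gene was lower. Of 5 enteroendocrine genes, 1 was higher and 1 lower in NAT10 RNAi, and of 4 peritrophic matrix genes, 1 was higher and 1 lower. The part of these tissue differences in the members' changes was not tested.

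The tables of differential genes deposited by the authors hold a selection of genes with at least a 2-fold change. The authors' deposited table for NAT10 RNAi against control has 1261 genes and lists 7 members, all higher: Mal-A3 at a log2 change of 3.99, Amy-p 3.59, Amy-d 3.03, Mal-A4 2.96, Mal-A2 2.89, Mal-A7 1.82 and Mal-A1 1.47. The authors' deposited table for both constructs against control has 346 genes and lists 5 members, all higher: Mal-A3 at 3.49, Mal-A4 3.21, Amy-p 3.07, Amy-d 2.84 and Mal-A2 1.54. Mal-A5, Mal-A6 and Mal-A8 are in neither list.

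The ac4C peaks listed by the authors, 1 list per genotype, were then placed on the members. A peak here is a stretch of transcript enriched in IP over input, and its fold enrichment is the authors' value. On the members' own strand there were 25 peaks on 9 members in NAT10 RNAi, 24 peaks on all 10 members with both constructs, and 18 peaks on 9 members in control. Of the 12242 measured genes matched in the annotation, 81.1% had a peak in NAT10 RNAi, 80.3% with both constructs and 82.3% in control. The members' share is thus near that of other genes. Mal-A7 had no listed peak in NAT10 RNAi, where it had 87 to 123 input reads per library. Amy-p had none in control, where it had 61 to 99. The median fold of the members' peaks was 1.83 in NAT10 RNAi, 2.34 with both constructs and 2.75 in control, beside medians of 2.07, 2.18 and 2.22 over whole lists. With 1 list per genotype there is no spread between replicates and no test of these differences.

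Most control peaks had a counterpart in the RNAi genotypes: 15 of the 18 touched a peak in both other lists. The peak on Mal-A1 (2R, 8450796 to 8451156) had the same borders in all 3 lists, with folds of 2.22 in NAT10 RNAi, 2.20 with both constructs and 2.10 in control. The strongest peak on Mal-A6 had folds of 2.85 in NAT10 RNAi, 3.26 with both constructs and 3.17 in control. At the 5′ end of Mal-A3 the folds were 5.49 in NAT10 RNAi, 5.45 with both constructs and 3.80 in control. The control peak there is weakly supported, with an authors' FDR of 0.106 and 29 to 36 input reads per control library over the whole transcript. The highest fold on any member was on Mal-A2, at 16.6 in control (8455092 to 8455334), where overlapping peaks had 3.49 in NAT10 RNAi and 4.11 with both constructs. This control value rests on a transcript with 11 to 13 input reads per library over its whole length.

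**Figure D5:**
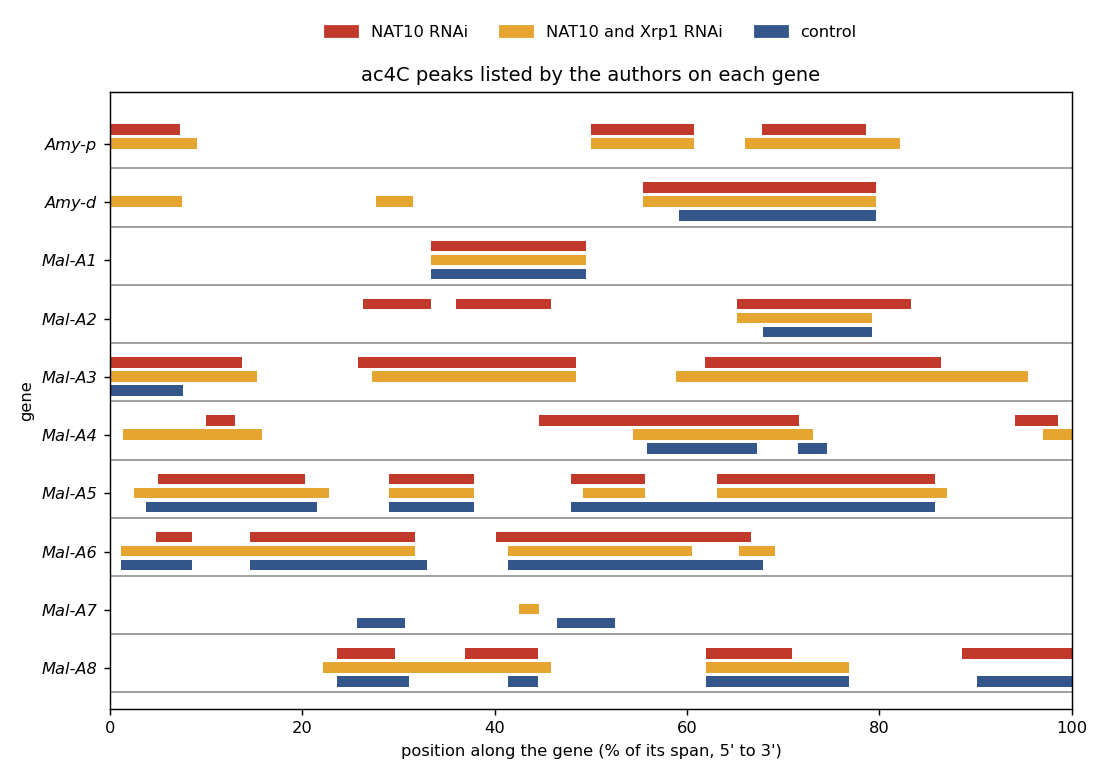
Positions of the authors' ac4C peaks along each gene, as a percentage of its span from 5′ to 3′, for NAT10 RNAi (red), NAT10 and Xrp1 RNAi (yellow) and control (blue). Bars are peaks and their heights carry no value. Mal-A1, Mal-A5, Mal-A6 and Mal-A8 carry peaks at like places in the 3 genotypes, and Amy-p has none in control.

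Among 1336 differential peaks in the authors' deposited table for NAT10 RNAi against control, 1 was on a member, and none of the 1316 in the authors' deposited table for both constructs was. It lies in Mal-A7 (2R, 8470080 to 8470260, minus strand), and the authors' deposited table gives a log2 change of -2.54 with p = 0.00307 and FDR = 0.0918. Its reads were 39, 37 and 36 in IP and 13, 18 and 12 in input in NAT10 RNAi, against 12, 17 and 22 in IP and 1, 2 and 0 in input in control. IP reads were thus higher in NAT10 RNAi, and input reads were higher by more. IP made up 112 of 155 reads in NAT10 RNAi, 72.3% with an exact Clopper-Pearson 95% interval of 64.5% to 79.1%, and 51 of 54 reads in control, 94.4% with an interval of 84.6% to 98.8%. These intervals cover counting error only, over reads pooled from 3 libraries each. Reads were not scaled to library depth, so the shares also carry any difference in depth between IP and input. The 3 input reads of control limit the value.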

How the data were processed

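Input and ac4C-IP libraries of whole larvae in 3 genotypes were used, 3 replicates each. Expression was deposited as FPKM, 1 value for each gene in each input library, per the file headers. Build BDGP6 and the tools STAR 2.7.6a, Subread 1.5.1, HOMER 4.9.1 and fastp 0.23.1 appear in the submitters' processing notes. Not given in the sources used here are the peak caller, the strand setting, the treatment of reads that match several genes and the use of the 12-base molecular identifiers. The deposited peak lists hold a fold enrichment (a ratio), a p-value and FDR per peak, per the file headers. The deposited tables of differential genes and peaks hold the authors' log2 changes with p-values, and the peak tables also read counts per library.

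FPKM times gene length gave whole reads for 100% of values (tolerance 0.1), hence the depths. The test was limma 3.58.1 (R 4.3.3) with trend and robust settings on log2(FPKM + 1), for genes with at least 1 FPKM in at least 3 of 9 input libraries, in 1 fit without a block, two-sided, with Benjamini-Hochberg adjustment over 11557 genes at 0.05. Alternatives were pseudocounts of 0.1 and 5, no filter, median-ratio rescaling, 2 genotypes only, a replicate block, edgeR 4.0.16 and DESeq2 1.42.0 on recovered reads, each replicate left out, the amylases summed, and levels relative to midgut structure genes. The script was tested on simulated data. Annotation came from a reference of the same build (12242 genes matched, 90.5% with the same span). A peak was placed on a gene with at least 1 exon base in common on the same strand.

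The members, lists and named genes were chosen with earlier results of these data known. List genes named are up to 4 called genes per comparison of largest change, with at least 5 FPKM in a genotype, and others were named after their values were seen. All 10 members are named. Some listed genes (among them Mal-B1, Hex-C, Akh, Ser12, LysC, LysP, LysX, Muc68D and TpnC41C) were not analysed here.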

Additional observations from a re-analysis of the deposited data

How the results depend on the processing

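The numbers of members called higher and lower stayed within 1.5 times under the alternatives run, apart from levels relative to midgut genes, with 1 exception: between both constructs and NAT10 RNAi 2 members were higher, in place of 1, under median-ratio rescaling, edgeR and DESeq2, since Mal-A4 then passed (log2 changes of 0.24, 0.23 and 0.25). edgeR called 7602, 5141 and 6764 genes in NAT10 RNAi against control, both constructs against control and both constructs against NAT10 RNAi, DESeq2 called 6824, 4229 and 5881, and limma called 7653, 4710 and 7094. Leaving out 1 replicate at a time gave 6876 to 8029, 3833 to 4625 and 6147 to 7009 genes in limma. Same-numbered replicates did not deviate together (correlations of -0.07 to 0.08), so the numbers do not pair the samples. With the replicate block 7581, 4539 and 7016 genes were called, and the member counts were 9 higher and 1 lower, 8 higher and 0 lower, and 1 higher and 8 lower. Relative to midgut structure genes 4 members were higher and 4 lower, in place of 8 and 0, with both constructs against control, and 2 were higher between both constructs and NAT10 RNAi. The sign turned for Mal-A8 in NAT10 RNAi (-0.031) and, with both constructs against control, for Mal-A1 (-0.19), Mal-A5 (-0.49), Mal-A6 (-0.066), Mal-A7 (-0.43) and Mal-A8 (-0.36). Without PGRP-SC1a in that list, a choice made after seeing the data, 6 were higher and 1 lower with both constructs against control, and 2 were higher and 4 lower between both constructs and NAT10 RNAi. The sign turned for Mal-A8 in NAT10 RNAi (-0.094), for Mal-A5 (-0.23) and Mal-A8 (-0.094) with both constructs, and for Amy-d between both constructs and NAT10 RNAi (0.066). The cause of these turns was not tested. Of the listed member peaks, 24 of 25, 21 of 24 and 15 of 18 had an FDR under 0.01 in NAT10 RNAi, both constructs and control, also a choice made after seeing the data. Depth limits Mal-A2 and Mal-A7 most, with 11 to 48 reads per library outside NAT10 RNAi.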
